A study of Zea mays with 28 samples.

Results

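ZmDDM1A and ZmDDM1B, the paralogous maize DDM1 proteins, were compared by where each was called on chromatin of wild-type (WT) embryos. The comparison took the deposited peak lists of all 4 WT libraries made with antibodies to these proteins, replicates 1 and 2 of each, and no peak was left out by its values. These lists hold 200836 of the 402883 peaks in the 10 lists analysed. The series has 28 libraries in 14 groups from developing embryos of the inbred line W22, collected 18 days after pollination. Embryos of the 4 libraries compared carried no mutant allele, received no treatment and came from field-grown plants, per the labels. Both antibodies were made in the submitters' laboratory, and chromatin was fixed with formaldehyde and sheared by sonication. Lists of zmddm1a and zmddm1b embryos, probed with the antibody to the mutated protein, served here only to mark peaks an antibody gave in its own mutant. A region called in both WT libraries of ZmAGO4 served as a readout from an antibody to another protein. The labels number the libraries as replicates without saying whether they came from separate plants, so a p-value here reflects library-to-library spread that may be purely technical.

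DDM1 is a SNF2-family chromatin remodeller, an ATPase that moves nucleosomes. In Arabidopsis it is needed to keep DNA methylation and silencing at transposons in compact chromatin, where it helps methyltransferases reach DNA wrapped around nucleosomes. ZmAGO4 belongs to the Argonaute proteins that carry small interfering RNAs in RNA-directed DNA methylation. A ChIP-seq peak is a stretch where immunoprecipitated DNA was sequenced more often than its control predicts, its summit is the base with most reads, and its fold is the deposited ratio of ChIP to control there. A peak's presence says where an antibody enriched DNA and does not measure how much protein was there.

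ZmDDM1A had 45957 peaks in replicate 1 and 45011 in replicate 2. ZmDDM1B had 56570 and 53298. Both ZmDDM1B lists were longer, by 0.27 on the log2 scale of peak number, and the exact permutation test of 2 against 2 libraries gave p = 0.333 (two-sided), the smallest p this design allows. The lists carry no read depth, which was therefore solved from each summit's fold and p-value: whole-number ChIP pileups (the reads stacked at the summit) fitted at least 99.998% of summits. The median pileup in the ZmDDM1A lists was 43 and 43, in the ZmDDM1B lists 43 and 39. The lowest control level that recurs in a list, its background floor, came to 17.9 and 17.8 reads per kb in the ZmDDM1A lists, 13.8 and 12.7 in the ZmDDM1B lists. The antibodies thus differed in depth and each had its own control, so list lengths and folds were compared only as ranks, shares or lists cut to equal length (the 45011 peaks of highest fold). Raw folds and pileups of both antibodies printed side by side are values only.

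Along the chromosomes the paralogues followed nearly the same profile. Peaks were dense near both chromosome ends and sparse in the middle: the last 5% of chromosome length held 9.02% and 9.14% of the ZmDDM1A peaks and 8.72% and 8.83% of the ZmDDM1B peaks. Between 40% and 45% of the length the shares were 2.53% and 2.48% for ZmDDM1A, and 2.58% and 2.53% for ZmDDM1B. All 4 libraries thus had the same sparse middle. The outer 40% of the chromosomes (20% at each end) held 55.3% and 55.5% of ZmDDM1A peaks against 54.9% and 54.9% of ZmDDM1B peaks. That is a difference of 0.488 percentage points with no overlap between the antibodies (exact permutation p = 0.333, the smallest possible). It was 0.287 points with equal lists and 0.218 for peaks with −log10 q of at least 5. Both ZmDDM1A libraries were above both ZmDDM1B libraries on 6 of the 10 chromosomes, and the ZmDDM1A mean was higher on 9, the exception being chromosome 10.

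**Figure D1:**
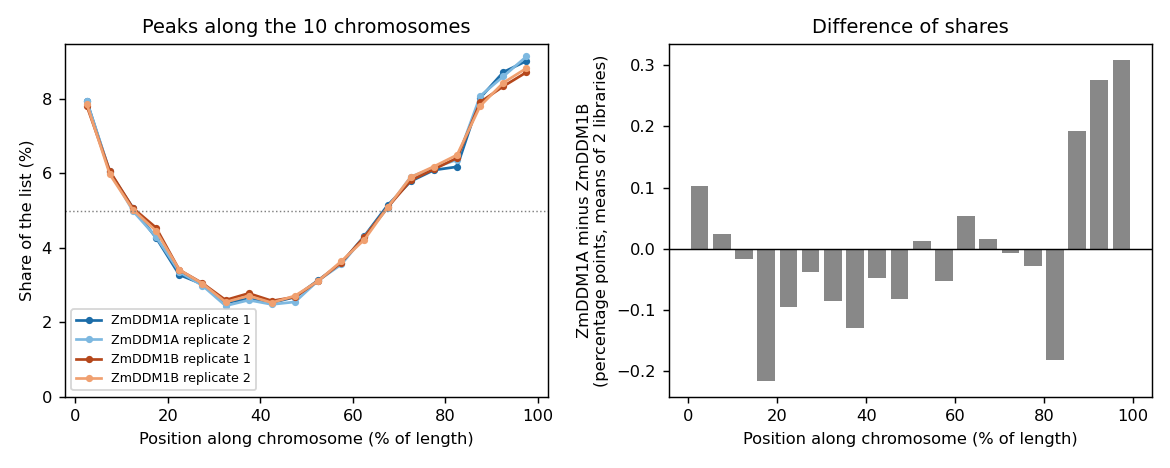
Share of each list in 20 equal slices of chromosome length, summed over the 10 chromosomes (left, 1 line per library, dotted line at an even share of 5%), and the ZmDDM1A mean minus the ZmDDM1B mean (right, percentage points). The 4 lines nearly coincide, and the difference lies between -0.216 and 0.309 points, highest in the last slice.

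Chromosome by chromosome the differences were small. Chromosome 1 held 16.2% and 16.3% of the ZmDDM1A peaks and 15.9% and 16.1% of the ZmDDM1B peaks. Chromosome 10 held 6.23% and 6.23% of the ZmDDM1A peaks and 6.47% and 6.35% of the ZmDDM1B peaks. These were the widest gaps towards ZmDDM1A and towards ZmDDM1B, 0.280 and -0.183 percentage points. Both ZmDDM1A libraries had the higher share on chromosomes 1, 3 and 5, and both ZmDDM1B libraries on chromosomes 4, 6, 7, 8 and 10. On chromosomes 2 and 9 the libraries of the antibodies overlapped. The density in ZmDDM1A replicate 1 ran from 18.9 peaks per Mb on chromosome 4 to 24.5 on chromosome 5, and chromosomes 4 and 5 were also the lowest and highest in ZmDDM1B replicate 1, at 23.5 and 29.7.

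In windows of 5 Mb, the share of a list (peaks per 10000 listed, log2 after adding 1) was fitted with limma over 426 windows. Only 1 window passed a Benjamini-Hochberg adjusted p of 0.05 with a higher ZmDDM1A share, 0.235% of those tested, and 10 passed with a higher ZmDDM1B share, 2.35%. At an unadjusted p under 0.05 there were 25 and 57. Both ZmDDM1A libraries lay above both ZmDDM1B libraries in 98 windows (23%), and both ZmDDM1B libraries lay above in 122 (28.6%). When all lists were cut to equal length 0 windows passed in either direction with limma (24 and 54 at an unadjusted p under 0.05, smallest adjusted p = 0.196), and all 11 differences kept their sign. The calls were thus not kept with equal lists, and what in the cut removed them was not tested. They also moved with single libraries, to 8 and 21 calls without ZmDDM1A replicate 2, 1 and 25 without ZmDDM1A replicate 1 and 1 and 15 without ZmDDM1B replicate 2.

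The 10 windows called for ZmDDM1B lay in sparse stretches away from the chromosome ends. The window with the largest difference, chr7:65000001-70000000, held 18 and 19 ZmDDM1A peaks and 40 and 34 ZmDDM1B peaks, a log2 share difference of -0.61 (SE 0.065, limma adjusted p = 0.0044). In chr3:75000001-80000000 there were 16 and 16 ZmDDM1A peaks and 33 and 31 ZmDDM1B peaks (log2 difference -0.60, SE 0.051, limma adjusted p = 0.0021). The window chr8:50000001-55000000 had 13 and 14 against 30 and 25 peaks. In each of these 3 windows the lower ZmDDM1B library had more peaks than the higher ZmDDM1A library by at least 11. The 5 most different are completed by chr4:105000001-110000000 (15 and 18 against 31 and 32 peaks) and chr7:60000001-65000000 (17 and 19 against 37 and 31). In chr7:60000001-65000000 every ZmDDM1A peak was met by a ZmDDM1B peak, since 0% were without one. Of the ZmDDM1B peaks there, 54.1% and 51.6% met no ZmDDM1A peak. Over the whole lists, 14.6% and 13.4% of ZmDDM1A peaks and 28.2% and 25.7% of ZmDDM1B peaks met no peak of the paralogue. This window was called for its surplus of ZmDDM1B peaks, so a high share of them without ZmDDM1A follows from the choice. Median pileups in that window were 42 and 40 in ZmDDM1A, 36 and 32 in ZmDDM1B.

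The window called for ZmDDM1A was chr5:200000001-205000000, which lies in a dense stretch. It held 207 and 191 ZmDDM1A peaks, or 45.0 and 42.4 per 10000 listed, against 196 and 186 ZmDDM1B peaks, or 34.7 and 34.9 per 10000 (log2 difference 0.32, SE 0.055, limma adjusted p = 0.028). Split into stretches of 1 Mb, the first, from 200 to 201 Mb, held 60 and 47 ZmDDM1A peaks against 40 and 34 ZmDDM1B peaks. That stretch was the only one of the 5 in which both ZmDDM1A libraries had more peaks than both ZmDDM1B libraries in raw number. Its split was looked at after the window had been called.

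Taken by density, the sparsest windows leaned to ZmDDM1B and the densest to ZmDDM1A, with no steady order between them. In the 107 sparsest windows (3.98 to 13.5 peaks per 10000 listed) both ZmDDM1B libraries were above both ZmDDM1A libraries in 48 and below them in 10, and the median difference was -0.09 on the log2 scale. Of the 106 densest windows (30.6 to 65.6 per 10000), 43 had both ZmDDM1A libraries above and 17 both ZmDDM1B libraries, with a median of 0.03. With lists of equal length the medians were -0.07 and 0.02. In the 106 windows of 13.6 to 20.8 peaks per 10000, both ZmDDM1A libraries were above in 27 and both ZmDDM1B libraries in 25 (median 0.007). In the 107 windows of 21.0 to 30.5 peaks per 10000, these numbers were 18 and 32 (median -0.017). Only 13.1% of the sparsest windows lay in the outer 40% of a chromosome, against 81.1% of the densest.

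**Figure D2:**
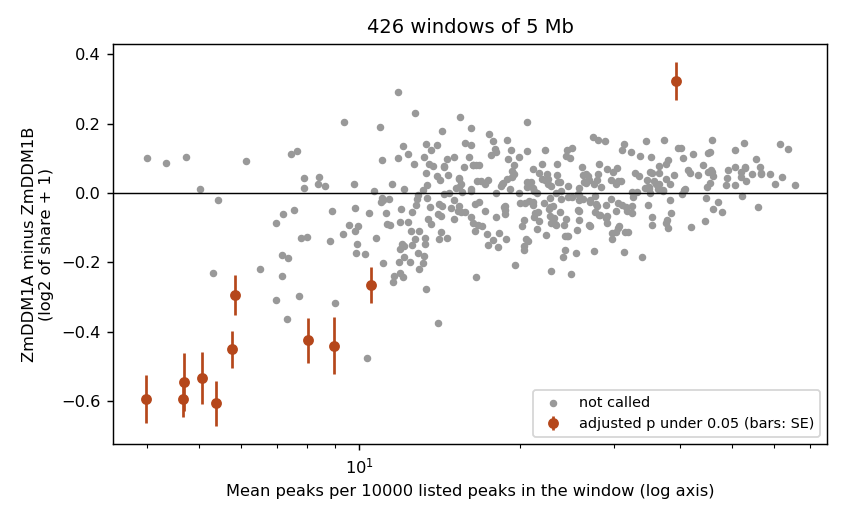
Difference in list share between ZmDDM1A and ZmDDM1B (log2 of peaks per 10000 plus 1, y axis) in 426 windows of 5 Mb against their mean share (x axis, log scale), with the 11 called windows in orange and bars of 1 SE. The 10 windows called for ZmDDM1B are at the sparse side, and the window on chromosome 5 is alone above 0.3.

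Most peaks of one paralogue were also peaks of the other. Of the ZmDDM1A peaks, 82.5% (replicate 1 in replicate 2) and 83.6% (the reverse) met a peak of the other replicate by at least 1 bp, and 79.1% to 81.4% met a peak of a given ZmDDM1B library. ZmDDM1B peaks were met by their replicate in 76.9% and 81.2% of cases and by a given ZmDDM1A library in 65.1% to 67.8%. ZmDDM1A peaks were thus met by the paralogue's longer lists nearly as often as by their own replicate, and ZmDDM1B peaks were not met as often by the paralogue's shorter lists. Averaged over both directions, overlap was 81.0% for the 2 replicate pairs and 73.4% ± 0.530 (SD) for the 4 paralogue pairs, a difference of 7.66 percentage points. These pairs share libraries, so the difference was not tested.

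Lists of unequal length give unequal shares in the 2 directions by construction, and lists of equal length remove this. With 45011 peaks in every list, the ZmDDM1A replicates met each other in 83.3% and 82.8% of peaks. The ZmDDM1B replicates met each other in 73.9% and 73.7%. Paralogues met each other in 71.2% to 72.6%, a mean of 71.8% ± 0.365 (SD, 4 pairs). The ZmDDM1B replicates were then only slightly more alike than the paralogues were, and the wider gap was that of ZmDDM1A. The cut by fold fell mainly on ZmDDM1B, with lowest folds kept of 3.23 and 3.08 against 2.18 and 1.21 in ZmDDM1A. Its part in the lower overlap of the ZmDDM1B replicates was not tested.

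The share met rose with the fold of the peak in every library. In the 10% of ZmDDM1A replicate 1 with the lowest folds, 59.6% of peaks were met by the other replicate and on average 56.4% by a ZmDDM1B library. In its top 10% the shares were 97.9% and 91.3%. ZmDDM1A replicate 2 ran from 68.8% and 64.0% to 99.0% and 93.0%. For ZmDDM1A the gap between replicate and paralogue at the lowest folds was smaller than at the top in replicate 1 and of similar size in replicate 2. For ZmDDM1B the gap was wide at the lowest folds and narrow at the top: 58.0% against 37.6% in the lowest 10% of replicate 1, and 96.8% against 94.8% in its top 10%. ZmDDM1B replicate 2 ran from 65.3% against 43.6% to 99.1% against 96.8%. Strong ZmDDM1B peaks were therefore met by ZmDDM1A about as often as by the ZmDDM1B replicate, whereas some of the strong ZmDDM1A peaks were met by the other replicate and not by ZmDDM1B.

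**Figure D3:**
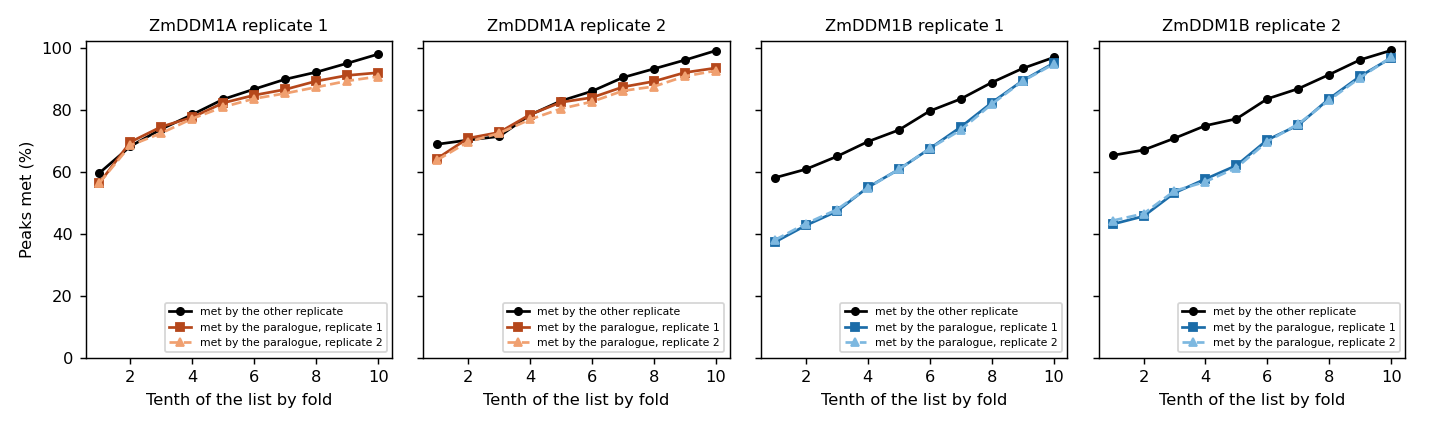
Percent of peaks met by the other replicate (black) and by each library of the paralogue (coloured) in 10 equal parts of each list by fold, from lowest (1) to highest (10). The gap between black and coloured curves is widest at low folds for ZmDDM1B, and small for ZmDDM1A through the middle of the lists.

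Merging the 4 lists gave 73712 stretches, of which 30159 (40.9%) held a peak of all 4 libraries and are called common regions here. Another 2975 (4.04%) held peaks of both ZmDDM1A libraries and of no ZmDDM1B library, and 6319 (8.57%) held peaks of both ZmDDM1B libraries and of no ZmDDM1A library. A larger number, 22764 stretches, were called in a single library. Common regions were wide, at a median of 651 bp, against 363 bp for those of ZmDDM1A alone and 394 bp for those of ZmDDM1B alone. A merged stretch spans all of its peaks, so stretches built from more libraries are wider in part by construction. As shares of each protein's own regions called in both replicates, 8.03% of 37060 ZmDDM1A regions and 14.9% of 42450 ZmDDM1B regions met no peak of the paralogue.

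Regions of a single paralogue met ZmAGO4 regions less often than common regions did. A ZmAGO4 region was met by 87.0% of common regions, 66.1% of the regions with both ZmDDM1A libraries only and 56.1% of those with both ZmDDM1B libraries only, beside 68.0% of all 73712 merged stretches. Wider regions can meet another region more easily, and common regions were the widest; the part of width was not tested. Counted by peak, those with a paralogue met ZmAGO4 regions in 83.1%, 83.1%, 83.2% and 83.1% of cases in the 4 libraries, ZmDDM1A first. Peaks without a paralogue met them in 60.2% (exact Clopper-Pearson 95% interval 59.1 to 61.4, counting error only) and 64.2% (63.0 to 65.4) for ZmDDM1A. Of the ZmDDM1B peaks without one, the shares were 45.0% (44.3 to 45.8) and 45.2% (44.4 to 46.0). Peaks with the paralogue are overlapping places seen from either list, so the close match of their shares follows from the definition. Where the paralogue was absent, the antibodies separated by 17.1 points (exact permutation p = 0.333, the smallest possible for 2 against 2). Among peaks that their own replicate also called, an alternative added after the data were seen, the shares were 65.6% and 65.2% against 55.1% and 55.2%, a difference of 10.2 points. Without ZmDDM1A replicate 2 the difference over all peaks without a paralogue fell to 9.91 points.

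Peaks without the paralogue were narrower and lower, for both proteins alike. Wide peaks meet another list more easily, and the share met rose with fold, so this direction follows in part from the split. How large that part is was not tested. The median width of peaks without the paralogue in ZmDDM1A was 269 and 277 bp, in ZmDDM1B 274 and 286 bp, whereas peaks with the paralogue measured 415, 439, 439 and 456 bp. Median pileups were 31 and 30 without against 45 and 46 with for ZmDDM1A, and 28 and 26 against 52 and 46 for ZmDDM1B. The loss of width on the log2 scale was 0.63 and 0.66 for ZmDDM1A and 0.68 and 0.67 for ZmDDM1B (exact permutation p = 0.333), and the loss of fold was 0.33 and 0.30 against 0.44 and 0.40 (exact permutation p = 0.333). Both losses were larger for ZmDDM1B in both libraries, by 0.03 and 0.11 on the log2 scale. With equal lists the difference in width loss grew to 0.14, and that in fold loss shrank to 0.02, with fold losses of 0.31 and 0.33 in ZmDDM1A and of 0.34 in both ZmDDM1B libraries. For peaks with −log10 q of at least 5 the difference in width loss turned to the other side by 0.011. Peaks without the paralogue also had fewer reads in the control, with a median control level of 2.48 and 2.44 times the floor for ZmDDM1A and 2.49 and 2.38 for ZmDDM1B. With the paralogue these levels were 3.01, 2.92, 3.74 and 3.39. The part of the control in these comparisons was not tested.

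**Figure D4:**
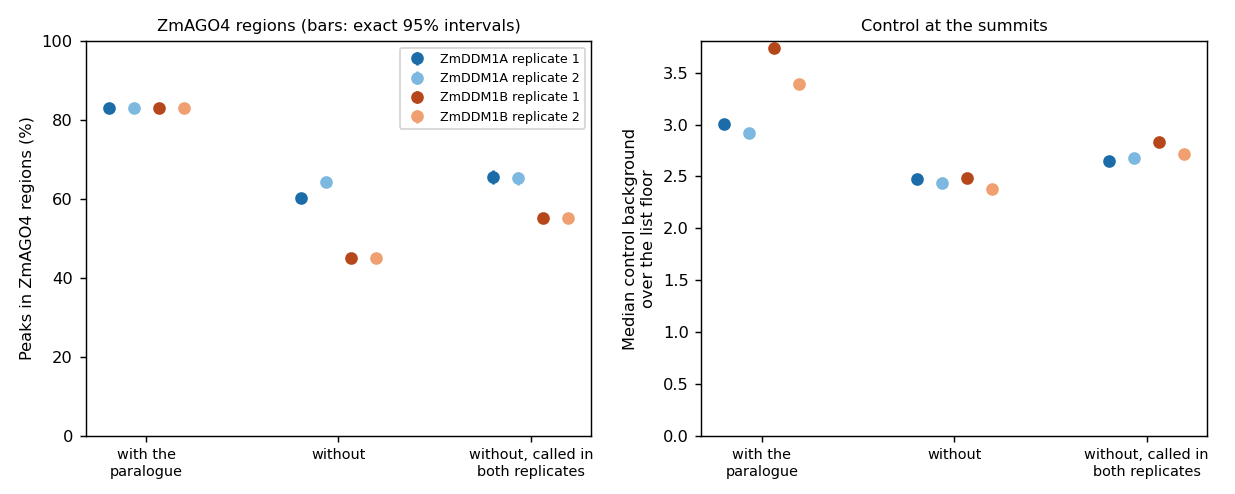
Left, percent of peaks in ZmAGO4 regions by library for peaks with the paralogue, without it, and without it but called in both replicates of the protein (bars, exact 95% intervals, mostly smaller than the points). Right, median control background at the summit divided by the list floor; without the paralogue all 4 libraries lie between 2.38 and 2.49.

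Each antibody's own mutant also gave peaks at some of these places. The mutant lists were short, with 817 and 883 peaks in zmddm1a and 1870 and 766 in zmddm1b. Their lengths limit the shares below and differ between the antibodies, so these shares do not measure the background of an antibody. ZmDDM1A peaks met a zmddm1a peak in 2.48% and 2.49% of cases with the paralogue and in 4.65% and 3.71% without it, a mean difference of 1.69 ± 0.674 points (SD, n = 2). ZmDDM1B peaks met a zmddm1b peak in 2.34% and 2.44% with the paralogue and in 2.41% and 2.98% without it, a difference of 0.302 ± 0.334 (SD, n = 2). With 2 libraries per antibody no exact test of these differences could pass 0.05, and the ZmDDM1B difference turned to -0.320 without ZmDDM1A replicate 1 and to -0.411 without ZmDDM1A replicate 2. The ZmDDM1A difference moved to 0.606 without ZmDDM1B replicate 1 and to 0.884 without ZmDDM1B replicate 2. Among ZmDDM1A peaks without the paralogue that both replicates called, 6.70% and 6.98% met a zmddm1a peak, and among the matching ZmDDM1B peaks 3.31% and 3.33% met a zmddm1b peak.

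All regions of a single paralogue without a mutant peak had a median smaller fold of the replicates of 3.12 for ZmDDM1A (2758 regions) and 3.20 for ZmDDM1B (6097 regions). The regions named next are the extremes, picked for high fold. With no mutant peak allowed, the highest ZmDDM1A region without ZmDDM1B was chr6:159037019-159037415, with pileups of 139 and 144 over a control at the floor in both libraries and folds of 31.7 and 31.7. Next was chr9:116367851-116368209, with pileups of 143 and 122 and folds of 32.6 and 26.9. The other 3 named by this rule, chr9:108595688-108596078, chr2:195473816-195474221 and chr3:197334012-197334306, had smaller folds of 11.7, 10.9 and 10.9. Of these 5 regions, 3 were also ZmAGO4 regions, while chr6:159037019-159037415 and chr3:197334012-197334306 had no ZmAGO4 peak in either library.

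ZmDDM1B regions without ZmDDM1A reached a smaller fold of at most 9.54. That region, chr4:151384146-151384514, had pileups of 47 and 35 and folds of 10.7 and 9.54. The region chr4:167788113-167788434 followed with pileups of 35 and 44 and folds of 9.51 and 12.1. At chr7:56610927-56611190, chr2:56647388-56647692 and chr5:163262620-163262927 the smaller folds were 8.98, 8.76 and 8.59. Pileups of these 5 ZmDDM1B regions lay between 31 and 47, all below the lowest pileup, 49, of the 5 ZmDDM1A regions. The highest folds of the whole lists were 54.2 and 52.3 for ZmDDM1A against 26.8 and 27.7 for ZmDDM1B, and the highest pileups 382 and 400 against 404 and 427. Depth and control differed between the antibodies, so these folds and pileups are values only and do not rank the proteins.

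Widths were alike. ZmDDM1A peaks had a median width of 390 and 412 bp, ZmDDM1B peaks of 381 and 403 bp, a difference of 9 bp within the spread of replicates (exact permutation p = 0.667). The sign depended on the peaks compared, since with equal lists ZmDDM1B peaks were wider, at 408 and 424 bp against 391 and 412 bp. It also turned, to -2 bp, without ZmDDM1A replicate 2 or without ZmDDM1B replicate 1. In the 26514 common regions with exactly 1 peak of each library, the ZmDDM1A medians were 444 and 465 bp and the ZmDDM1B medians 468 and 481 bp. Both ZmDDM1B peaks were wider than both ZmDDM1A peaks in 28.6% of these regions and narrower than both in 19.9%. Fragment length enters these widths, since MACS2 by default sets the smallest width to it. That smallest width was 191 and 200 bp in the ZmDDM1A lists, 202 and 214 bp in the ZmDDM1B lists. Width above it, an alternative added after the data were seen, had medians of 199 and 212 bp against 179 and 189 bp, a difference of 21.5 bp (exact permutation p = 0.333).

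Peaks of both proteins occurred in clusters. The median gap between neighbouring peaks in the ZmDDM1A lists was 10395 and 10981 bp, in the ZmDDM1B lists 9491 and 10070 bp. The mean gap was 45354, 46297, 36744 and 39009 bp in that order. The median was thus 0.229 and 0.237 of the mean for ZmDDM1A and 0.258 and 0.258 for ZmDDM1B, a lower ratio standing for more uneven spacing. In lists of equal length, 60.8% and 60.8% of ZmDDM1A peaks had a neighbour within 5 kb, against 55.1% and 56.1% of ZmDDM1B peaks, a difference of 5.19 points (exact permutation p = 0.333, the smallest possible). In clusters of at least 3 such peaks lay 35.7% and 35.7% of ZmDDM1A peaks and 31.1% and 32.1% of ZmDDM1B peaks. The full lists gave no such order: 61.4% and 60.8% for ZmDDM1A against 61.9% and 61.2% for ZmDDM1B, a difference of -0.449 (exact permutation p = 0.667). These comparisons use different peaks, as equal lists drop the lowest folds of ZmDDM1B.

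Clustering split the ZmDDM1B list by the presence of ZmDDM1A. In the full lists 65.6% and 64.4% of ZmDDM1B peaks with the paralogue had a neighbour of the same list within 5 kb, and 52.5% and 51.8% of those without it. For ZmDDM1A the shares were 61.5% and 61.2% with, and 60.8% and 58.5% without. The share with a near neighbour was thus lower among peaks of ZmDDM1B alone than among peaks of ZmDDM1A alone. Among those that both replicates called the shares were closer, 58.9% and 57.0% against 62.1% and 59.96%.

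Common regions lay together too. Linked where the next lay within 5 kb, the 30159 common regions formed 21147 runs. Of the common regions 51.5% stood alone and 24.5% lay in runs of 3 or more. The longest run, chr7:134243381-134264981, held 11 common regions in 21.6 kb, with 12, 11, 11 and 11 peaks of the 4 libraries. Runs of 10 regions lay at chr5:219965078-219998663 (33.6 kb) and chr7:5206494-5232984 (26.5 kb). The median fold percentile in the longest run was 53.3 and 33.3 for ZmDDM1A and 36.2 and 42.2 for ZmDDM1B, so the peaks of this run were near the middle or below it among the common regions.

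The summits of the paralogues lay close to each other and a little farther apart than those of replicates. The median distance between summits of overlapping peaks was 41 bp for the ZmDDM1A replicates and 37 bp for the ZmDDM1B replicates, against 56, 59, 56 and 58 bp for the 4 paralogue pairs. Every paralogue pair exceeded both replicate pairs, by 18.2 bp on average, and pairs that share libraries were not tested. Within 50 bp of each other lay 57.3% and 60.4% of replicate summits and 45.0% to 46.5% of paralogue summits. The distance had no side: the signed median was 0 bp in every pair. Of the 26514 regions with 1 peak per library, both ZmDDM1A summits lay at lower coordinates than both ZmDDM1B summits in 25.4% and at higher coordinates in 25.3%. All 4 summits fell within 50 bp in 5307 of these regions. Relative to the middle of its own peak, the summit lay at a median of 11.4% of the width in both ZmDDM1A libraries and 10.5% in both ZmDDM1B libraries (difference 0.925 points, exact permutation p = 0.333). With equal lists the values were 11.3% and 11.4% against 9.56% and 9.89%, a difference of 1.64 points.

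At the common regions, the order by fold was only moderately shared, even between replicates. Spearman's rho over the 30159 regions was 0.572 between the ZmDDM1A replicates, 0.485 between the ZmDDM1B replicates and 0.395 to 0.426 between paralogues. These are descriptions across regions, which are not independent and share each library's depth and control. Of the 3016 regions in the top 10% of a library, the ZmDDM1A replicates shared 43.2%, the ZmDDM1B replicates 31.2% and the paralogues 26.1% to 28.7%. Unrelated orders would share about 10% in a pair of libraries. Of the 3016 regions in the top 10% of a library, 190 were in the top 10% of all 4. Limma on the fold percentile called 0 of 30159 regions (0%) in either direction, with 1714 and 1424 at an unadjusted p under 0.05 and a smallest adjusted p of 0.39985. On normal scores of the ranks it called 74 for ZmDDM1A and 1 for ZmDDM1B, together 0.249% of the regions. Both ZmDDM1A percentiles were above both ZmDDM1B percentiles in 6177 regions (20.5%) and below both in 6204 (20.6%).

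**Figure D5:**
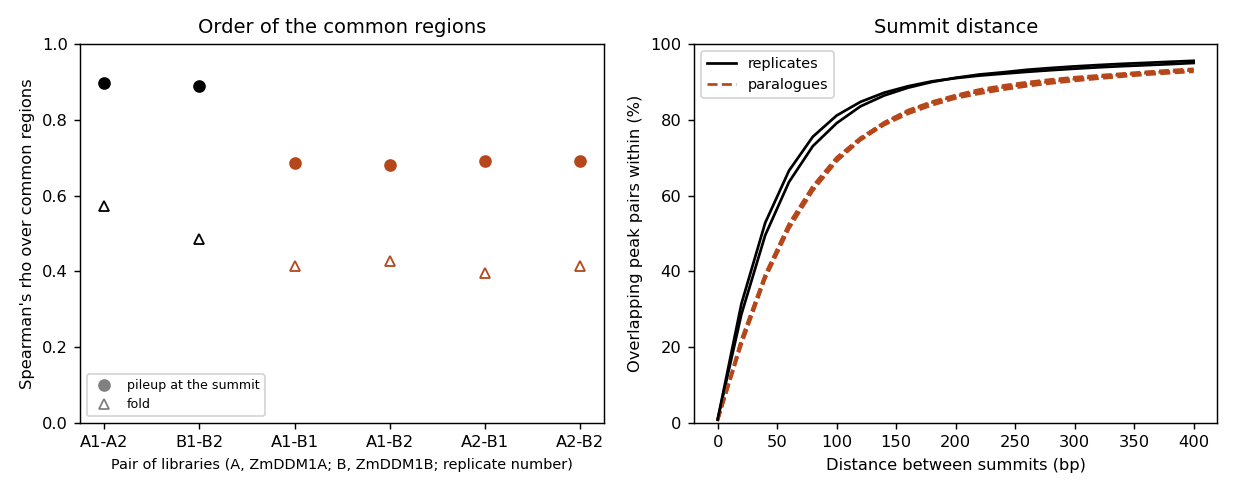
Left, Spearman's rho over 30159 common regions for each pair of libraries, by pileup at the summit (filled) and by fold (open triangles), replicates in black and paralogues in orange. Right, percent of overlapping peak pairs whose summits lie within a given distance (bp); the replicate curves (37 and 41 bp at the median) lie above the paralogue curves (56 to 59 bp).

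The regions named next were chosen for high fold in all 4 libraries, so that both proteins were high there follows from the choice. The highest by smallest percentile was chr5:221648954-221649923, with pileups of 341, 226, 389 and 414 and folds of 44.4 and 28.5 in ZmDDM1A, 13.6 and 23.5 in ZmDDM1B. The next were chr1:178718762-178719377 (folds 13.2, 11.6, 14.1 and 17.2) and chr3:211085951-211086602 (11.8, 12.7, 12.7 and 12.4). Then came chr6:138554121-138554962 and chr1:11043389-11044224, with folds between 10.7 and 13.6. All 5 were ZmAGO4 regions. Peaks of both mutants lay at chr5:221648954-221649923 and chr1:11043389-11044224, and a zmddm1b peak at chr1:178718762-178719377.

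The regions most different in fold rank differed in pileup at some places and in the control at others. At chr2:239871947-239872757 the fold was 8.27 and 6.70 for ZmDDM1A against 1.48 and 1.51 for ZmDDM1B. The ChIP pileup there was 94 and 93 against 116 and 90, which overlap, while the control level was 10.5 and 13.04 against 78.1 and 59.2. Depth differed between the antibodies, so these pileups and controls are values only. The part of each in the fold difference at this region was not tested. At chr6:115751961-115752565 the pileups themselves differed, 154 and 166 against 37 and 44, with controls of 10.6 and 14.8 against 13.01 and 16.7. The remaining one, chr1:109694750-109695407, had pileups of 158 and 157 against 26 and 34. A zmddm1a peak lay at chr6:115751961-115752565 and at chr1:109694750-109695407.

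Towards ZmDDM1B the 3 most different were chr10:76626000-76626595, chr2:11545308-11546495 and chr3:170802792-170803427. At chr10:76626000-76626595 the pileups were 25 and 25 for ZmDDM1A and 61 and 56 for ZmDDM1B, with folds of 2.59 and 2.95 against 9.99 and 8.70. At chr2:11545308-11546495 they were 54 and 56 against 76 and 62, and the control was 16.3 and 18.3 against 7.36 and 5.15. Pileup and control thus moved in opposite directions at chr2:11545308-11546495. None of these 3 regions held a mutant peak. Over the 6177 regions with both ZmDDM1A percentiles above, the median control was 2.83 and 2.78 times the floor in ZmDDM1A, 4.36 and 4.07 in ZmDDM1B. Over the 6204 with both below it was 3.51 and 3.41 against 3.42 and 3.05, and over the 17778 others 3.18 and 3.17 against 4.05 and 3.73. Median pileups in these 3 sets were 55 and 56 against 54 and 48, then 46 and 47 against 65 and 57, and 50 and 51 against 60 and 52. Pileup and control both enter the fold that made the sets, so that they differ follows from the split. How much of the fold order came from the controls was not tested.

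Ranking by the recovered ChIP pileup, which leaves the control out, gave an order that replicates shared more closely. This ranking was added after the fold ranks had been seen. Spearman's rho was 0.898 between the ZmDDM1A replicates, 0.890 between the ZmDDM1B replicates and 0.680 to 0.691 between paralogues. The median difference in percentile was 7.48 and 7.58 points between replicates and 13.4 to 13.8 between paralogues. Replicates were thus nearly as alike for one protein as for the other, and every paralogue pair was less alike than either. Limma called 1459 regions higher for ZmDDM1A (4.84%) and 989 higher for ZmDDM1B (3.28%), and 4662 and 4739 had an unadjusted p under 0.05. These calls rest on all 4 libraries. Without any 1 of ZmDDM1A replicate 1, ZmDDM1A replicate 2, ZmDDM1B replicate 1 or ZmDDM1B replicate 2 limma called 0 and 0 regions, with the lone library assumed to vary like the others and 7010 to 7659 regions at an unadjusted p under 0.05.

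Of the regions called by pileup, those higher for ZmDDM1A departed in place from the regions not called, and those higher for ZmDDM1B lay near them. Of the 1459 higher for ZmDDM1A, 47.0% lay in the outer 40% of the chromosomes, against 57.4% of the 989 higher for ZmDDM1B and 56.4% of the 27711 not called. ZmAGO4 regions were met by 81.8%, 85.1% and 87.3% in that order. A peak of the ZmDDM1A antibody in zmddm1a lay at 11.9% of those higher for ZmDDM1A, 0.404% of those higher for ZmDDM1B and 2.66% of those not called. A peak of the ZmDDM1B antibody in zmddm1b lay at 0.480%, 0.809% and 3.298%. These groups were chosen by pileup, with median ZmDDM1A pileup percentiles of 71.1 and 70.2, 21.8 and 22.4, and 49.9 and 49.9 in that order. Shares with a mutant peak were not compared at matched pileup, and the part of mutant peaks in the result was not tested. With all peaks that meet a mutant peak left out, 1335 and 939 of 28425 regions were called.

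Examples were picked after their values had been seen, as those with the largest pileup differences. At chr2:55661408-55662205 the pileups were 199 and 198 for ZmDDM1A and 23 and 24 for ZmDDM1B, with controls of 9.05 and 7.47 against 7.81 and 5.55 (limma adjusted p = 0.034). At chr6:4891037-4891740 they were 167 and 160 against 31 and 22. Both regions held a zmddm1a peak, and chr6:4891037-4891740 was not a ZmAGO4 region. Towards ZmDDM1B, chr4:42373940-42374510 had pileups of 37 and 32 against 105 and 88. There the fold percentiles of the antibodies overlapped, at 69.4 and 6.47 for ZmDDM1A and 38.6 and 82.5 for ZmDDM1B. At chr8:166337013-166337566 the pileups were 35 and 30 against 95 and 69, with no mutant peak and with a ZmAGO4 region, as at chr4:42373940-42374510. All coordinates refer to B73 RefGen_v4. Genes and sequences at these places were not analysed here.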

How the data were processed

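Peak lists of 1 library each were used as deposited, with none pooled. The submitters' processing notes name MACS2 2.1.2, Bowtie2, Picard and Trim Galore, and for the build B73 RefGen_v4. Peak caller settings: not given in the sources used here. Reads of W22 were thus placed on another line's assembly. The authors deposited a fold (a ratio of ChIP to control), −log10 p-values and q-values (the smallest −log10 q was 2.00 to 2.01, near a threshold of 0.01), a score, which was not used, and summit offsets. Folds are the authors' and entered tests only as ranks or differences within a list. Pileup and control were solved from fold and −log10 p, with whole pileups accepted within 0.001. Chromosome lengths were the largest peak ends of all lists.

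Overlap meant at least 1 bp. Windows held a mean of at least 10 peaks, with a pseudocount of 1. Fits used limma 3.58.1 in R 4.3.3, with Benjamini-Hochberg adjustment over all windows or regions at 0.05, and fold changes are on the log2(value + 1) scale. Single values were compared by exact two-sided permutation (numpy 2.4.6), and exact Clopper-Pearson intervals came from scipy 1.17.1. The fits were tested on simulated data. Named regions were the 5 (common, or of 1 protein) with the highest smallest percentile or fold, the 3 most different in fold rank each way without overlap of the antibodies, the 5 most different called windows each way and the 3 longest runs. Alternatives were thresholds, list lengths, windows, rank measures, overlap rules, a replicate block and each library left out. The members, lists and rules were chosen with earlier results of these data known. Promoter shares were not computed, since no annotation of the build was used here.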

Additional observations from a re-analysis of the deposited data

How the results depend on the processing

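Of 293 alternatives to 30 results, 228 kept direction and side of the threshold (values with no test stayed within the spread, counts within 1.5 times). With 2 against 2 libraries an exact p cannot pass 0.05, so for those results this says nothing on stability of size. Named windows lost their call under 9 alternatives and named regions gained one under 7. The other changes follow, and the cause was not tested beyond what a setting removes by construction. The width difference (main 9 bp) turned to -14.5 bp with equal lists and ranged from -2 to 20 bp with 1 library left out. The clustering difference turned to -0.449 points with full lists (4.65 to 5.73 with 1 library left out), and the difference in width loss turned to 0.011 at −log10 q of at least 5. The excess of mutant peaks without the paralogue was 0.497 (equal lists) and 2.37 points (50% of the peak covered) for ZmDDM1A, 0.606 to 2.17 with 1 library left out, and 1.18 points (50% covered) for ZmDDM1B, -0.411 to 0.538 with 1 left out, turning to -0.320 without ZmDDM1A replicate 1 and to -0.411 without ZmDDM1A replicate 2. Replicate pairs exceeded paralogue pairs in overlap by 6.57 points with equal lists and 10.0 with 50% covered (5.38 to 10.0 with 1 left out), and paralogue summits were farther apart by 13 bp for peaks under 500 bp (15 to 20.5 with 1 left out).

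Window calls (1 for ZmDDM1A, 10 for ZmDDM1B) became 0 and 3 at −log10 q of at least 5, 0 and 0 with equal lists, 1 and 4 in windows of 2 Mb and 3 and 17 in windows of 10 Mb, and ranged from 1 to 8 and from 10 to 25 with 1 library left out: 8 and 21 without ZmDDM1A replicate 2, 1 and 25 without ZmDDM1A replicate 1. Fold rank calls (0 and 0) became 74 and 1 on normal scores and 1459 and 989 by pileup. The pileup calls became 3072 and 2596 on normal scores, and 0 and 0 with any 1 library left out. Replicate numbers did not pair the libraries: deviations of same-numbered libraries correlated at 0.006 over common regions and -0.016 over windows. The replicate block gave 1 and 20 window calls and, for pileup, 0 and 0. With 2 libraries per antibody depth and antibody cannot be told apart. Mutant shares without mutant peaks, and summit distances at 50% cover, gave no value.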
